A study of Mus musculus with 19 samples.

Results

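The effectors and direct targets of the canonical Wnt pathway, 10 of the 55416 genes in the count table, were followed across 19 mouse embryonic stem cell (mESC) lines. They were taken by gene symbol among the 21885 protein coding genes, and each symbol matched 1 gene. Of these, 4 encode the effectors of the pathway, which are beta-catenin (Ctnnb1) and its DNA-binding partners Tcf7, Tcf7l1 and Tcf7l2. The remaining 6 are direct targets, of which Axin2, Nkd1 and Notum feed back on the signal and Sp5, T (brachyury) and Cdx1 are transcription factors.

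When a Wnt ligand binds its Frizzled receptor, the destruction complex no longer marks beta-catenin for degradation, and beta-catenin enters the nucleus and binds factors of the TCF/LEF family. In mESCs, Tcf7l1 acts mainly as a repressor of pluripotency genes and beta-catenin relieves that repression, which is why an inhibitor of GSK3 is often added to the culture medium of naive mESCs. Axin2 is the usual readout of the pathway, and T, Cdx1 and Sp5 are switched on by Wnt signals in the primitive streak and the posterior embryo.

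The lines had been derived from separated blastomeres of embryos at the 8-cell stage, so that lines of an embryo are sisters. B6CBAF1/J females had been mated with B6CBAF1/J males, and the paper describes the F2 embryos as genetically distinct. Embryo and genotype therefore cannot be told apart here. Embryo 1 gave 5 lines (1.1 to 1.5), embryo 2 gave 7 (2.1 to 2.7) and embryo 3 gave 7 (3.1 to 3.7), with 1 RNA library for each line and no line sequenced in replicate. All lines were kept in the same medium, with serum replacement, leukemia inhibitory factor (LIF), the MEK inhibitor PD0325901 at 1 uM and the TGFβ inhibitor SB431542 at 10 uM, and no GSK3 inhibitor is named. They grew on human foreskin fibroblasts inactivated with mitomycin C, and these feeder cells were taken away before RNA extraction.

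The study sorted its lines into group I, with 11 lines (1.1, 1.3, 1.4, 2.3 to 2.6 and 3.4 to 3.7), and group II, with 8 lines (1.2, 1.5, 2.1, 2.2, 2.7 and 3.1 to 3.3). Line 2.2 is placed by the study's network analysis of co-expressed genes. The groups were drawn from the expression profiles of these same libraries, so a p-value between them is not independent evidence that the groups exist. Levels are given in CPM, which scales the counts of each library to a common total, after TMM normalization. A gene was called where edgeR's quasi-likelihood test gave an adjusted p under 0.05 (Benjamini-Hochberg, over all genes tested) and a fold change over 1.5. Since each line is represented by a single library, p-values measure the spread between sister lines, part of which may be technical.

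The total count per library ranged from 33846569 to 48740941, with a median of 41942274, and no pair of libraries was identical. Markers of mESCs summed to between 3306 and 4473 CPM in group I and between 2422 and 3682 CPM in group II. Of 9 such markers 2 were called higher in group I and 0 lower, beside 5.66% and 6.23% of all genes. By contrast, 8 of 10 markers of primitive streak and mesendoderm had a mean under 1 CPM. The 10 summed to between 4.05 and 18.1 CPM. Fibroblast markers summed to between 428 and 836 CPM in group I and between 270 and 608 CPM in group II. Of these 12 markers 7 were called higher in group I and 0 lower, beside 5.66% and 6.23% of all genes. The feeder cells were human and the reads were aligned to the mouse genome alone, so human reads that may lie in these counts were not separated. Of 8 primitive endoderm markers 4 were called higher in group I (Gata6, Pdgfra, Dab2 and Lama1) and 0 lower, beside the same shares of all genes. The 8 summed to between 77.3 and 165 CPM in group I and between 84.8 and 145 CPM in group II. Some lines were shifted over a whole chromosome that carries one of the 10 genes. The median of the 720 other genes of chromosome 8, which carries Nkd1, lay 0.36 (log2) above the embryo mean in line 2.2 and 0.29 above it in line 3.1. That of the 654 other genes of chromosome 6, which carries Tcf7l1, lay 0.22 above the embryo mean in line 3.4 and -0.29 from it in line 3.7. On chromosomes 2, 9, 11, 17, 18 and 19, which carry the other genes, the median of every line lay within -0.07 and 0.07 of its embryo mean.

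Promoters are shown for the transcription factors Sp5 and T, because a TCF/LEF motif was found in them, and for Nkd1, because it is the target that differed between the groups. RefSeq promoter windows, with 250 bases before and 50 after the transcription start (build GRCm38.p6), matched 8 of the 10 genes in 11 windows, and Notum and Cdx1 had no entry. The motifs searched on both strands were CTTTGAA and CTTTGAT, which do not share a match, and capitals mark a match. Sp5 lies at chr2:70474673-70474972 (plus strand), T at chr17:8434173-8434472 (plus strand) and Nkd1 at chr8:88527383-88527682 (plus strand).
Sp5: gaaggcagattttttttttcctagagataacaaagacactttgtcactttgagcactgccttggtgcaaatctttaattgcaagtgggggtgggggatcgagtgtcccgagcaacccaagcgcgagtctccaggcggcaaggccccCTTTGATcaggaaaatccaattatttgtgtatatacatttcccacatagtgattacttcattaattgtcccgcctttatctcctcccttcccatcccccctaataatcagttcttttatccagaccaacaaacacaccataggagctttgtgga
T: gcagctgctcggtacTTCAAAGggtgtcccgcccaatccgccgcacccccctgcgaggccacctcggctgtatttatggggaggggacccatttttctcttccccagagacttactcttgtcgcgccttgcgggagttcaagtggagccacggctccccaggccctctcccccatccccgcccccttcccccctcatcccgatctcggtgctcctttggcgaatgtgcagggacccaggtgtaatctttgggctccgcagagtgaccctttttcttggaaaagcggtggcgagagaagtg
Nkd1: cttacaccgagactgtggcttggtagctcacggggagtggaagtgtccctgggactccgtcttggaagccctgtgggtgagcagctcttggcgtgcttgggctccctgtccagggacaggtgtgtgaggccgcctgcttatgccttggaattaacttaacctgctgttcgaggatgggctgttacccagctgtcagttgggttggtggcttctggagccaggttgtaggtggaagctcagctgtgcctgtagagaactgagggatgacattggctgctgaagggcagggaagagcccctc
The Sp5 window holds CTTTGAT on the plus strand, starting 104 bases before the transcription start. The T window holds CTTTGAA on the minus strand, starting 235 bases before it. No match was found in the windows of Nkd1, Axin2, Ctnnb1, Tcf7, Tcf7l1 and Tcf7l2. Across all 32851 RefSeq promoter windows of this length, CTTTGAA was present in 5.14%, CTTTGAT in 3.73% and either in 8.65%. A match of this kind describes the letters alone, and whether it is a bound site was not tested.

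The effectors Ctnnb1, Tcf7l1 and Tcf7 were expressed far above the targets. In bulk RNA, a larger share of cells with a transcript and more of it per cell cannot be told apart. Per kilobase of exon, the mean level over the 19 lines was 95.1 ± 7.81 CPM per kb (SD, n = 19) for Ctnnb1, 32.3 ± 6.86 for Tcf7l1, 14.0 ± 3.81 for Tcf7 and 2.11 ± 0.599 for Tcf7l2. Each of the first 3 exceeded the next effector in 19 of 19 lines. Among the targets the level per kilobase was 1.59 ± 0.623 CPM per kb for Notum, 1.29 ± 0.393 for Axin2, 0.80 ± 0.79 for Cdx1, 0.426 ± 0.179 for Sp5, 0.246 ± 0.106 for Nkd1 and 0.113 ± 0.0769 for T. These neighbours overlapped in their spread: Tcf7l2 exceeded Notum in 14 of 19 lines, Notum exceeded Axin2 in 14, Axin2 exceeded Cdx1 in 16, Cdx1 exceeded Sp5 in 13, Sp5 exceeded Nkd1 in 15 and Nkd1 exceeded T in 16.

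The spread between lines was narrowest for the effector at the centre of the pathway and widest for the targets T and Cdx1. The coefficient of variation of the CPM over 19 lines was 8.21% for Ctnnb1, 21.2% for Tcf7l1, 27.2% for Tcf7, 28.4% for Tcf7l2, 30.4% for Axin2, 39.1% for Notum, 42.0% for Sp5, 43.3% for Nkd1, 67.9% for T and 98.1% for Cdx1. The plot of levels by line shows each gene in every library. For the rarest genes the counts were small, with 1 to 30 reads for T, 16 to 63 for Sp5, 9 to 301 for Cdx1 and 34 to 190 for Nkd1, so counting error forms part of their spread.

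**Figure D1:**
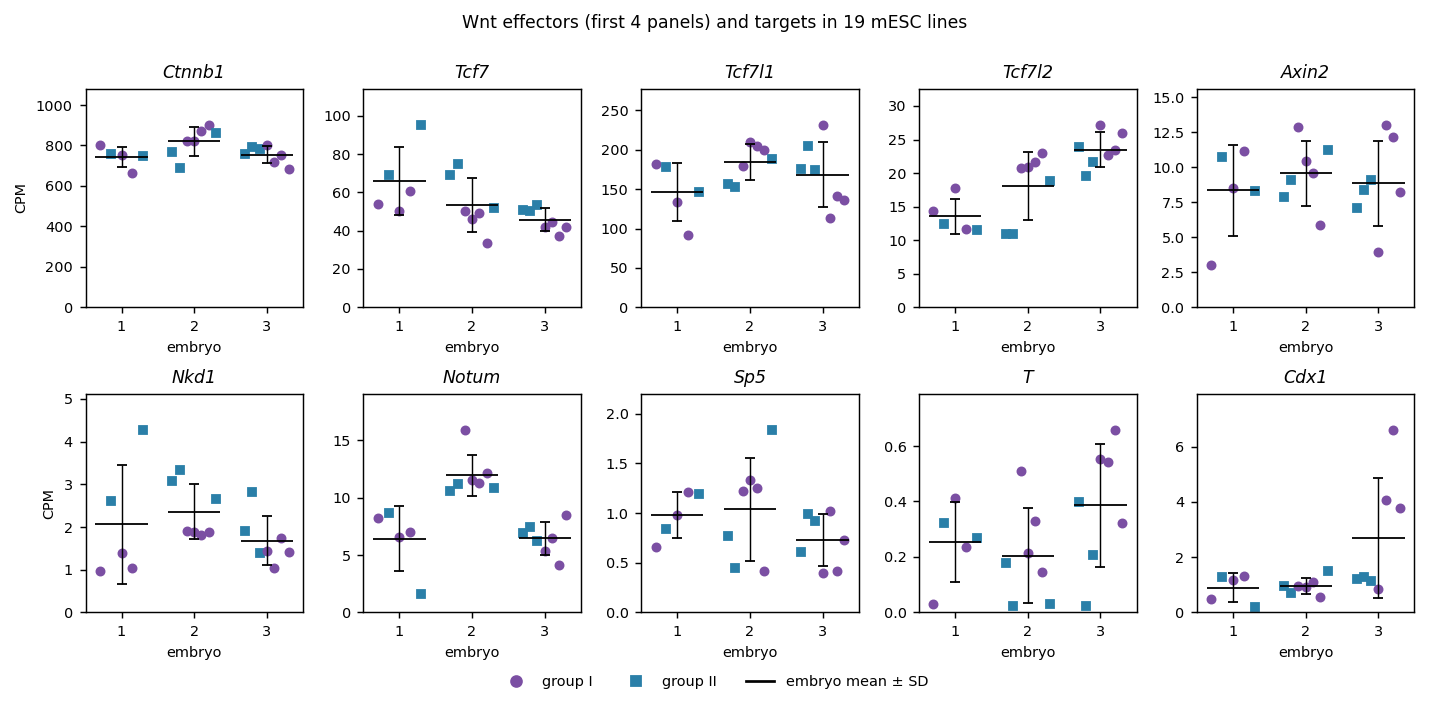
Level (CPM, y axis from 0) of the 4 Wnt effectors and the 6 targets in each of the 19 lines, by embryo (x axis), with group I as circles, group II as squares, and the mean ± SD of each embryo in black. Tcf7 is lower in the group I lines than in the group II lines of each embryo, Notum is higher in the 7 lines of embryo 2 than in the other embryos, and Cdx1 stands out in lines 3.5, 3.6 and 3.7.

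Beta-catenin itself varied little. Ctnnb1 (chromosome 9, 120757422 to 120789579 in GRCm39) encodes both the nuclear effector of the pathway and a part of the adherens junction. Its level was lowest at 666 CPM in line 1.4, had a median of 770 and was highest at 901 CPM in line 2.6. The embryo means were 745 ± 49.8 (SD, n = 5), 821 ± 71.6 (n = 7) and 755 ± 42.6 CPM (n = 7) for embryos 1, 2 and 3, and their ranges overlapped. Group I lay at 782 ± 74.8 CPM (n = 11) and group II at 770 ± 48.8 CPM (n = 8), a log2 difference of 0.03 (95% interval -0.09 to 0.14, adjusted p = 0.753). Wnt signals act on the stability of the beta-catenin protein, which these RNA levels do not measure. Ulk4, which overlaps Ctnnb1 on the opposite strand, had a mean of 4.87 CPM.

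Tcf7 and Tcf7l2 differed between the groups in opposite directions, each by less than the fold required for a call. Tcf7 (chromosome 11, 52143107 to 52174619), the factor that activates targets with beta-catenin in many tissues, stood at 54.0, 50.2 and 60.9 CPM in the group I lines 1.1, 1.3 and 1.4 of embryo 1 and at 69.1 and 95.2 CPM in the group II lines 1.2 and 1.5. In embryo 2 it stood at 50.3, 46.0, 49.5 and 33.7 CPM in lines 2.3, 2.4, 2.5 and 2.6 of group I and at 69.1, 75.0 and 51.7 CPM in lines 2.1, 2.2 and 2.7 of group II. In embryo 3 it stood at 42.2, 44.5, 37.1 and 41.8 CPM in lines 3.4, 3.5, 3.6 and 3.7 of group I and at 50.8, 50.3 and 53.6 CPM in lines 3.1, 3.2 and 3.3 of group II. The groups did not overlap for Tcf7 in any of the 3 embryos, with group I below group II each time. Of all genes tested, 16.3%, 9.25% and 13.4% were likewise lower in group I without overlap in embryos 1, 2 and 3, taken one embryo at a time. The share of all genes lower without overlap in all 3 embryos at once was not counted. Tcf7 fell by 0.46 on the log2 scale in group I (SE 0.0870, 1.38-fold), with an adjusted p of 0.00122. Once a score of fibroblast genes, defined with the Nkd1 results, entered the model, the log2 difference of Tcf7 was -0.28 (adjusted p = 0.448). Over all 19 lines together the groups overlapped for each of the 10 genes, where 0.575% of all genes had no overlap.

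Tcf7l2 (chromosome 19, 55730188 to 55922091), which acts both as an activator and as a repressor, was higher by 0.40 on the log2 scale in group I (SE 0.111, 1.32-fold, adjusted p = 0.0133). In embryo 2 it stood at 20.7, 20.9, 21.6 and 23.0 CPM in lines 2.3, 2.4, 2.5 and 2.6 of group I and at 10.9, 10.9 and 18.8 CPM in lines 2.1, 2.2 and 2.7 of group II. These ranges did not overlap, which was true of 8.7% of all genes in that direction. The group ranges overlapped in embryo 1, with means of 14.6 CPM in group I and 12.0 in group II, and in embryo 3, with means of 24.8 and 21.7. The adjusted p of Tcf7l2 between groups was 0.102 without lines 2.2, 3.1, 3.2, 3.6 and 3.7, and 0.155 with no embryo term. An earlier analysis of these data, not shown here, gave those lines as shifted over a chromosome. On the chromosomes followed here, the medians of lines 3.2 and 3.6 lay at most 0.09 and 0.07 from their embryo mean. Most of the lines taken out are of embryo 3, so that fit also rests on fewer of its lines. With line numbers as a block the log2 difference of Tcf7l2 was 0.33 (adjusted p = 0.196), and once the fibroblast score entered the model it was 0.23 (adjusted p = 0.628).

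Tcf7l1 (chromosome 6, 72603354 to 72766589), the repressor of the family, showed no group difference past the threshold. It had 166 ± 44.9 CPM (SD, n = 11) in group I and 172 ± 19.5 CPM (n = 8) in group II, with a log2 difference of -0.06 (95% interval -0.34 to 0.22, adjusted p = 0.780). Its lowest levels were 91.9 CPM in line 1.4 and 113 CPM in line 3.5, and its highest were 232 CPM in line 3.4 and 210 CPM in line 2.4. Line 3.4 is also the one with the highest median over chromosome 6, and its part in that value was not tested.

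Between embryos, Tcf7l2 was the one effector that was called. It had 13.5 ± 2.65 CPM (SD, n = 5) in embryo 1, 18.1 ± 5.09 (n = 7) in embryo 2 and 23.5 ± 2.55 (n = 7) in embryo 3. In embryo 1 the lines 1.1 to 1.5 stood at 14.3, 12.4, 17.8, 11.6 and 11.6 CPM, and in embryo 3 the lowest line had 19.6, the median 23.5 and the highest 27.2 CPM. The ranges of embryos 1 and 3 did not overlap, and embryo 2 reached from 10.9 to 23.0 CPM, overlapping with each of them. How many of all genes had no overlap between embryos 1 and 3 was not counted. Tcf7l2 rose by 0.80 on the log2 scale from embryo 1 to embryo 3 (SE 0.180, 1.74-fold, adjusted p = 0.00849), and this call held in 27 of 27 alternative settings. In the same comparison 5 of 8 trophectoderm markers and 1 of 8 primitive endoderm markers were called higher in embryo 3. Of all genes, 5.45% were called there in either direction. The median log2 differences of these marker lists were 1.94 and 0.44, and their part in the Tcf7l2 difference was not tested.

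Against embryo 1, 1 of the 10 genes was called in embryo 3 (Tcf7l2), where 5.45% of all 18878 genes tested were called. Embryo 2 against embryo 1 gave 0 of 10 with edgeR, beside 4.35% of all genes, while 2 of the 10 had an unadjusted p under 0.05 (Notum and Tcf7l2), beside 20.2% of all genes, and DESeq2 called 1 (Notum), beside 6.11%. Embryo 3 against embryo 2 gave 2 of 10 (Notum and Cdx1), beside 5.63% of all genes. In a test across the 3 embryos at once, 3 of 10 passed an adjusted p of 0.05 (Notum 0.0195, Cdx1 0.0291 and Tcf7l2 0.0136), beside 13.6% of all genes. The 3 pairs of embryos share samples, so their values stand side by side and are not separate support for each other. Median log2 differences of the 10 genes were 0.16, 0.05 and -0.13 for embryo 2 against 1, 3 against 1 and 3 against 2, and those of all genes were -0.01, -0.01 and 0.00.

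Notum was highest in embryo 2. Notum (chromosome 11, 120541446 to 120552019) encodes a secreted enzyme that removes the lipid from Wnt ligands and so inactivates them. In embryo 1 it stood at 8.19, 8.66, 6.58, 7.04 and 1.59 CPM in lines 1.1 to 1.5. In embryo 2 the lowest line had 10.6, the median 11.3 and the highest 15.9 CPM, and in embryo 3 the lowest had 4.09, the median 6.50 and the highest 8.50 CPM. All 7 lines of embryo 2 were above every line of the other embryos, and line 1.5, at 71 counts, was the lowest of all. The share of all genes with such a separation between embryos was not counted. Notum fell by 0.89 on the log2 scale from embryo 2 to embryo 3 (SE 0.244, 1.85-fold, adjusted p = 0.0265). That call was lost without line 2.3 (-0.80, adjusted p = 0.0638), line 3.4 (-0.85, adjusted p = 0.050) or line 3.6 (-0.80, adjusted p = 0.0615), and also without lines 2.2, 3.1, 3.2, 3.6 and 3.7 together (-1.0, adjusted p = 0.20).

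Embryo 2 against embryo 1 gave a log2 difference of similar size for Notum, at 0.90 (SE 0.271), with an adjusted p of 0.0553 that missed the threshold. Without line 1.5 the log2 difference was 0.65 and the adjusted p 0.0215, without line 1.2 they were 1.03 and 0.0470, and with DESeq2 0.90 and 0.0138. An antisense gene, Notumos, overlaps Notum on the opposite strand and had a mean of 0.488 CPM, as against 8.46 CPM for Notum, and reads of the 2 cannot be told apart in counts made without strand.

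Cdx1 was high in 3 sister lines of embryo 3. Cdx1 (chromosome 18, 61151934 to 61169314), a homeobox factor that patterns the posterior embryo, had 4.05, 6.59 and 3.79 CPM in lines 3.5, 3.6 and 3.7, from 187, 301 and 141 counts. In lines 3.1 to 3.4 it had 1.22, 1.28, 1.15 and 0.853 CPM, in embryo 2 the lowest line had 0.564, the median 0.972 and the highest 1.48, and in embryo 1 the lines 1.1 to 1.5 had 0.488, 1.30, 1.19, 1.31 and 0.202 CPM. The 3 high lines all belong to group I, and the fourth group I line of that embryo, 3.4, had the lowest level there.

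Cdx1 rose by 1.50 on the log2 scale from embryo 2 to embryo 3 (SE 0.454, 2.82-fold, adjusted p = 0.0454), a call close to the threshold that held in 13 of 27 alternative settings. It was lost when any of 11 lines was left out (1.2, 1.3, 2.1 to 2.6 and 3.5 to 3.7), and without line 3.6 the log2 difference was 1.10 and the adjusted p 0.137. Embryo 3 against embryo 1 gave 1.59 (SE 0.513) with an adjusted p of 0.0594, and without line 3.1, 3.2, 3.3 or 3.4 it was called, with an adjusted p from 0.0389 (3.4) to 0.0492 (3.1). Between the groups the log2 difference was 0.64 (95% interval -0.17 to 1.44, adjusted p = 0.229), and within embryo 3 it was 1.66 (SE 0.560, adjusted p = 0.0763). Cdx2, a related homeobox gene and a marker of trophectoderm named after its values were seen, also rose from embryo 1 to embryo 3, by 2.89 on the log2 scale (SE 0.836, adjusted p = 0.0373), at means of 0.101 ± 0.106 CPM (n = 5) and 0.756 ± 0.643 CPM (n = 7). Of 8 trophectoderm markers 5 were called higher in embryo 3 than in embryo 1, beside 5.45% of all genes called in either direction. The sum of the 8 markers lay between 90.5 and 197 CPM in embryo 1 and between 135 and 397 CPM in embryo 3. In embryo 2, where Cdx1 was low, that sum lay between 154 and 402 CPM, and the median log2 difference of these markers between embryos 3 and 2 was 0.05. Elf5 and Cdx2, which define that lineage, had means under 1 CPM, and the part of such cells in the Cdx1 values was not tested.

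**Figure D2:**
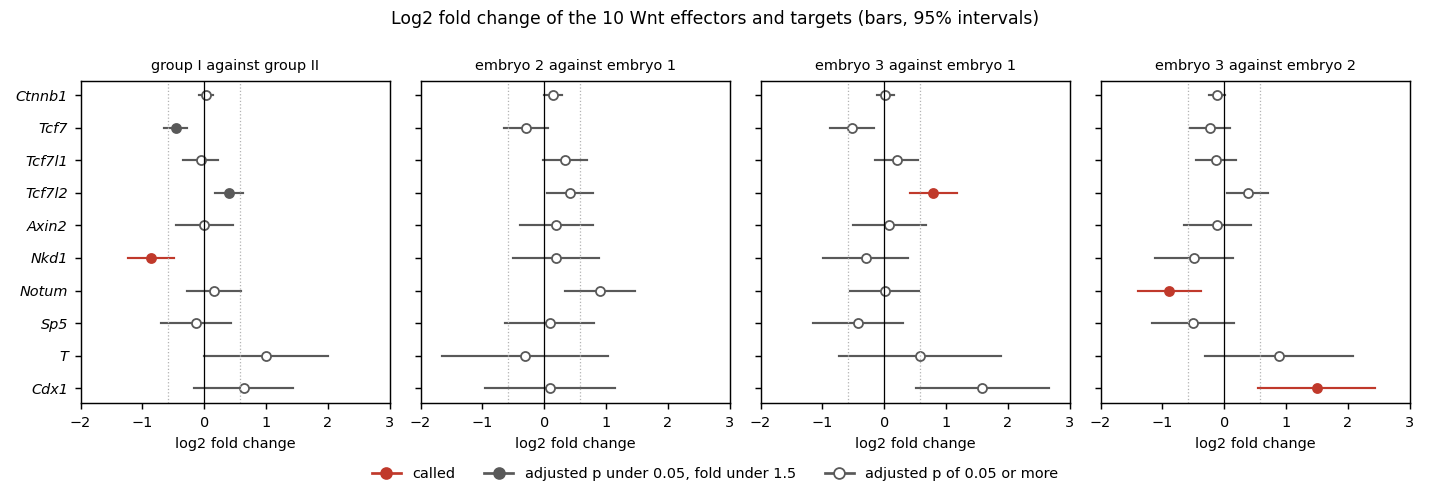
Log2 fold change (x axis) of each of the 10 genes (y axis) between groups I and II and between pairs of embryos, with bars for the 95% interval and dotted lines at a fold of 1.5. Red points are called, filled grey points have an adjusted p under 0.05 at a smaller fold, and open points have an adjusted p of 0.05 or more. Nkd1 is the called gene between the groups, Tcf7l2 between embryos 3 and 1, and Notum and Cdx1 between embryos 3 and 2.

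Between groups I and II, 1 of the 10 genes was called (Nkd1), where 11.9% of the 20333 genes tested were called. At any fold, 3 of 10 had an adjusted p under 0.05 (Nkd1, Tcf7 and Tcf7l2), beside 25.7% of all genes. The counts of the 10 genes were thus near the background, and the median log2 difference of the 10 genes was 0.02, as against 0.00 for all genes.

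Nkd1 was lower in group I. Nkd1 (chromosome 8, 89247890 to 89324577) encodes a protein that binds Dishevelled and damps the Wnt signal, and it is itself a Wnt target. In embryo 1 it stood at 0.977, 1.40 and 1.05 CPM in lines 1.1, 1.3 and 1.4 of group I and at 2.61 and 4.27 CPM in lines 1.2 and 1.5 of group II. In embryo 2 it stood at 1.90, 1.88, 1.81 and 1.89 CPM in lines 2.3, 2.4, 2.5 and 2.6 of group I and at 3.08, 3.33 and 2.65 CPM in lines 2.1, 2.2 and 2.7 of group II. In embryo 3 it stood at 1.43, 1.04, 1.75 and 1.43 CPM in lines 3.4, 3.5, 3.6 and 3.7 of group I and at 1.90, 2.81 and 1.38 CPM in lines 3.1, 3.2 and 3.3 of group II. Group I lay below group II without overlap in embryos 1 and 2 (16.3% and 9.25% of all genes, each embryo taken alone). In embryo 3 the group II line 3.3 fell within the range of group I.

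Nkd1 fell by 0.86 on the log2 scale in group I (SE 0.178, 1.82-fold, adjusted p = 0.00228), and the call held when any of the 19 lines was left out, at log2 differences from -0.96 to -0.73. Over chromosome 8 as a whole, the median lay 0.36, 0.29, 0.14 and 0.09 above the embryo mean in the group II lines 2.2, 3.1, 1.2 and 2.1. In the other group II lines, 1.5, 2.7, 3.2 and 3.3, it lay at -0.06, -0.06, 0.05 and -0.13. Of group I, line 3.6 lay at 0.07 and the other lines between -0.11 and -0.01. The part of these shifts in the Nkd1 difference was not tested. Lines 1.2 and 2.1 stayed in the fit without lines 2.2, 3.1, 3.2, 3.6 and 3.7, in which the log2 difference was -0.91 (adjusted p = 0.0363). When a score of fibroblast expression (the mean log2 CPM of the collagen genes Col1a1, Col1a2 and Col3a1 and of Lum and Dcn) entered the model, the log2 difference of Nkd1 was -0.56 (edgeR, adjusted p = 0.475). In that fit edgeR called 0 of 20333 genes, with 2267 of them at an unadjusted p under 0.05, and Tcf7 was the 1 of the 10 among these. DESeq2 was not run with this score. In embryos 1 and 2 every group I line had a higher fibroblast score than the group II lines. In embryo 3 the group II lines 3.1 and 3.3 had a higher score than the group I line 3.4. The score and the group thus went together in most of these lines, and the fit can separate them only in part. Markers of primitive endoderm also moved with the group, and their part in the Nkd1 difference was not tested.

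By embryo, the log2 difference of Nkd1 between the groups was -1.58 (SE 0.303, adjusted p = 0.00833) in embryo 1, -0.69 (SE 0.252, adjusted p = 0.166) in embryo 2 and -0.51 (SE 0.256, adjusted p = 0.219) in embryo 3. The first was called, as were 3.63% of all genes within embryo 1. Within embryos 2 and 3 edgeR called 0 of the 10 genes, beside 1.01% and 5.61% of all genes, while 4 (T, Nkd1, Tcf7 and Tcf7l2) and 2 (Cdx1 and Tcf7) had an unadjusted p under 0.05, as had 18% and 25.1% of all genes. DESeq2 called 1 of the 10 in each embryo, Nkd1 in embryo 1, Tcf7l2 in embryo 2 and Cdx1 in embryo 3, beside 7.71%, 3.77% and 8.75% of all genes. Tested directly, the group difference varied between embryos for 0 of the 10 genes in edgeR, beside 0.0393% of all genes, and for 0 in DESeq2, beside 1.41%. In edgeR 1 of the 10 (Nkd1) had an unadjusted p under 0.05, as had 8.89% of all genes. The p of Nkd1 there was 0.0380 unadjusted and 0.525 adjusted, so a larger difference in embryo 1 was not shown.

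Axin2, the most used readout of the pathway, had the same mean in both groups. Axin2 (chromosome 11, 108811169 to 108841609) encodes a scaffold of the destruction complex and is a negative feedback target. It had 8.97 ± 3.47 CPM (SD, n = 11) in group I and 8.97 ± 1.39 CPM (n = 8) in group II, with a log2 difference of 0.00 (95% interval -0.46 to 0.47, adjusted p = 0.991). The group II lines reached from 7.09 to 11.2 CPM. The group I lines reached from 3.02 CPM in line 1.1 and 3.94 CPM in line 3.4 to 12.9 CPM in line 2.3 and 13.0 CPM in line 3.5, so that both the lowest and the highest lines were in group I. The embryo means were 8.34 ± 3.24 (n = 5), 9.55 ± 2.29 (n = 7) and 8.84 ± 3.05 CPM (n = 7), and no pair of embryos differed past the threshold, with adjusted p from 0.759 to 0.884.

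Sp5, a zinc finger factor that binds at many Wnt target genes, had low counts throughout. Sp5 (chromosome 2, 70305267 to 70308073) stood at 0.877 ± 0.365 CPM (n = 11) in group I and 0.950 ± 0.423 CPM (n = 8) in group II, a log2 difference of -0.13 (95% interval -0.70 to 0.44, adjusted p = 0.755). Its highest levels were 1.83 CPM in line 2.7 and 1.33 CPM in line 2.4, and its lowest were 0.401 in line 3.4, 0.416 in line 3.6, 0.417 in line 2.6 and 0.442 in line 2.2. The highest line of embryo 3 was 3.5, at 1.02 CPM. Embryo 3 against embryo 2 gave a log2 difference of -0.51 (SE 0.319, adjusted p = 0.332).

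T, the brachyury factor of the primitive streak, was at the edge of detection. T (chromosome 17, 8653062 to 8661328) had a single count in each of lines 1.1, 2.2, 2.7 and 3.2, and at most 30 counts, in line 3.6. Group I had a lowest level of 0.0287, a median of 0.329 and a highest of 0.657 CPM, and group II had 0.0225, 0.194 and 0.399 CPM. The ranges overlapped, although 3 of the 4 lines with a single count were in group II. The log2 difference was 1.00 (SE 0.482, 95% interval -0.000275 to 2.01) and its adjusted p of 0.128 missed the threshold. Without line 1.1, the group I line with a single count, it was 1.19 with an adjusted p of 0.0483. Of 10 streak and mesendoderm markers, 8 also lay under 1 CPM on average, Mixl1, Mesp1, Evx1 and Tbx6 among them. Eomes and Gsc did not. Between the groups, 8 of the 10 were tested, and 1 was called higher in group I and 0 lower, beside 5.66% and 6.23% of all genes.

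Across sister lines, pairs of these genes varied together or in opposition. Levels were taken as log2(CPM + 0.5) with the embryo mean subtracted, and all 45 pairs were tested with 100000 permutations of lines within embryos (two-sided). The points of a pair share their libraries, their scaling and their sister lines. By Pearson's r, 3 pairs had an adjusted p under 0.05, and by Spearman's rho 2 pairs had. With the group means subtracted as well, 0 of the 45 pairs had an adjusted p under 0.05 by r.

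Ctnnb1 and Tcf7l1 rose and fell together, with r = 0.774 (permutation p = 1e-05, the smallest that these permutations can give, adjusted p = 0.00045) and rho = 0.826 (permutation p = 5e-05, adjusted p = 0.00225). Without lines 1.4 and 2.2, which lay farthest from the median of Ctnnb1, r was 0.753, and within embryos 2 and 3 it was 0.843 and 0.847 (n = 7 each). With the group means subtracted as well, r was 0.750 (permutation p = 0.00343, adjusted p = 0.0772). Over chromosome 6, which carries Tcf7l1, the median was lowest in lines 3.7 (-0.29), 3.5 (-0.16) and 1.4 (-0.13) and highest in line 3.4 (0.22), and the part of these shifts in the relation was not tested.

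Tcf7 and Tcf7l2 varied in opposition, with r = -0.806 (permutation p = 4e-05, adjusted p = 9e-04) and rho = -0.763 (permutation p = 0.00034, adjusted p = 0.00765). Without lines 1.5 and 2.2, r was -0.774. Within embryo 2 it was -0.902 and within embryo 3 -0.563 (n = 7 each), and with the group means subtracted it was -0.638 (permutation p = 0.00586, adjusted p = 0.0879). The negative sign was thus present within both embryos and within groups.

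Nkd1 and Tcf7 varied together, with r = 0.699 (permutation p = 0.00125, adjusted p = 0.0188), whereas rho of 0.668 (permutation p = 0.005) had an adjusted p of 0.0750. Without lines 1.5 and 3.2, r was 0.598, and within embryos 2 and 3 it was 0.830 and 0.259. With group means subtracted r was 0.113 (permutation p = 0.771, adjusted p = 0.907), so most of the relation went with the difference between the groups. Embryo 1, with 5 lines, is too small for a value of its own.

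Among the targets, 2 pairs came closest to the threshold. Axin2 with Cdx1 gave r = 0.622 (permutation p = 0.00776, adjusted p = 0.0582) and rho = 0.647 (permutation p = 0.00696, adjusted p = 0.0783), with r = 0.594 without lines 1.1 and 3.4, 0.679 within embryo 2, 0.745 within embryo 3 and 0.797 with the group means subtracted (permutation p = 0.00185, adjusted p = 0.0772). Axin2 with Sp5 gave r = 0.550 (permutation p = 0.00512, adjusted p = 0.0576) and rho = 0.553 (permutation p = 0.0136, adjusted p = 0.120), with r = 0.472 without lines 1.1 and 3.4, 0.768 within embryo 2, 0.466 within embryo 3 and 0.579 with the group means subtracted (permutation p = 0.00951, adjusted p = 0.107). Neither pair passed the correction over 45 pairs.

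**Figure D3:**
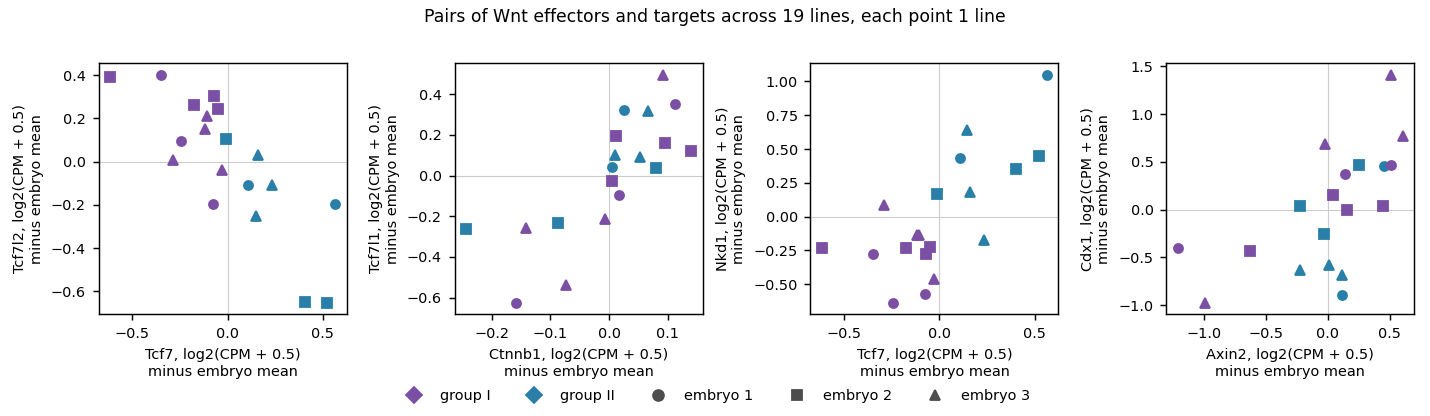
Each point is 1 of the 19 lines, with axes in log2(CPM + 0.5) minus the mean of its embryo, colours for the groups and shapes for the embryos. Tcf7l2 falls as Tcf7 rises (r = -0.806), Tcf7l1 rises with Ctnnb1 (r = 0.774), Nkd1 rises with Tcf7 (r = 0.699) and Cdx1 rises with Axin2 (r = 0.622).

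For the targets Axin2, Sp5, T and Cdx1, the genes with the most similar pattern over the 19 lines were sought among 13998 or 13999 genes whose mean reached 1 CPM, by Pearson's r after subtraction of the embryo means, as a description. Closest to Axin2 were Galnt10 (r = 0.878), Zmiz1 (r = 0.837) and Flvcr2 (r = 0.833). Sp5 came closest to Ltbr (r = 0.865), Rapgef2 (r = 0.827) and Ncoa2 (r = 0.805). T was nearest in pattern to Tnfrsf11b (r = 0.780), Alcam (r = 0.771) and Sepsecs (r = 0.758), and Cdx1 to Vnn1 (r = 0.870), Robo4 (r = 0.845) and Ttl (r = 0.842). None of these 12 genes is among the 10 studied here.

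The other genes of the pathway were read from lists of 108 genes, arranged by role. The 108 include 7 genes of the naive state that Tcf7l1 represses, which are not parts of the pathway itself. Of the 108 genes, 100 were tested between the groups and 17 were called, or 17%, beside 11.9% of all genes. Group I was higher for 7 of the called genes, 3 of them naive genes, and lower for 10, beside 5.66% and 6.23% of all genes. These are also the shares to set beside the group counts of each list below. Between embryos the calls were few, at 1 of 97 for embryo 2 against 1 (1.03%, beside 4.35% of all genes), 2 for embryo 3 against 1 (2.06%, beside 5.45%), 1 for embryo 3 against 2 (1.03%, beside 5.63%) and 3 across the 3 embryos (3.09%, beside 13.6%).

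Among 17 Wnt ligands and secretion factors tested, 1 was higher and 1 lower in group I. Wnt5a, a ligand best known for signalling without beta-catenin, had 7.97 ± 3.26 CPM (n = 11) in group I and 5.15 ± 1.79 CPM (n = 8) in group II, a rise of 0.64 on the log2 scale (SE 0.182, adjusted p = 0.0149). Wnt7a, at a mean of 0.616 CPM and so named outside the rule after its values were seen, fell by 1.78 on the log2 scale (SE 0.516, adjusted p = 0.0165). Between embryos, Wnt4 was the ligand that was called, with 0.630 ± 0.524 CPM (n = 5) in embryo 1, 2.83 ± 1.33 (n = 7) in embryo 2 and 2.24 ± 1.13 (n = 7) in embryo 3. Against embryo 1 the log2 rise of Wnt4 was 2.14 (SE 0.492, adjusted p = 0.0109) in embryo 2 and 1.81 (SE 0.487, adjusted p = 0.0252) in embryo 3.

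Of 20 receptors and membrane regulators tested, 4 were called lower in group I and 0 higher, beside 6.23% and 5.66% of all genes. The median log2 difference of the 20 was -0.18. The Frizzled receptor Fzd2 had 14.1 ± 7.61 CPM (n = 11) in group I and 23.2 ± 5.02 CPM (n = 8) in group II and fell by 0.86 on the log2 scale (SE 0.164, adjusted p = 0.00132). Fzd7, the most abundant of the 3 in CPM, had 66.7 ± 15.8 and 106 ± 32.2 CPM and fell by 0.67 (SE 0.105, adjusted p = 0.000342). Fzd3 had 15.0 ± 6.74 and 22.0 ± 3.44 CPM and fell by 0.65 (SE 0.159, adjusted p = 0.00627). The remaining call, of 0.972 CPM on average and named after its values were seen, was Rnf43, a ubiquitin ligase that removes Frizzled from the membrane, which fell by 1.01 (SE 0.323, adjusted p = 0.0268).

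The 10 secreted inhibitors and their receptors tested were split, with 2 called higher and 1 lower in group I. Sfrp5, which binds Wnt ligands, rose by 0.76 on the log2 scale in group I (SE 0.230, adjusted p = 0.0203), and Dkk1, which blocks the coreceptors Lrp5 and Lrp6, rose by 0.85 (SE 0.281, adjusted p = 0.0314) at a mean of 0.778 CPM. Sfrp2, of the same family as Sfrp5, fell by 0.75 (SE 0.205, adjusted p = 0.0122), from 27.6 ± 7.22 CPM (n = 8) in group II to 18.7 ± 10.8 CPM (n = 11) in group I. Across the 3 embryos Kremen2, a receptor for Dkk proteins, was called (adjusted p = 0.0493) at a mean of 0.474 CPM, and like Dkk1 it was named after its values were seen.

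In the destruction complex and among Dishevelled genes, 1 of 14 was called. This was Nkd2, the paralogue of Nkd1, which fell by 0.95 on the log2 scale in group I (SE 0.220, adjusted p = 0.00435), with 2.04 ± 0.513 CPM (n = 11) against 3.97 ± 1.66 CPM (n = 8). Apc, Axin1, Gsk3a, Gsk3b and the other core genes of the complex were not called between the groups or between any pair of embryos.

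Of 13 nuclear partners of beta-catenin, 0 were called higher and 2 lower in group I. Lef1, the TCF/LEF factor that is both an effector and a target, had 49.6 ± 33.4 CPM (n = 11) in group I and 94.8 ± 30.4 CPM (n = 8) in group II and fell by 1.06 on the log2 scale (SE 0.232, adjusted p = 0.00310). Pygo1, which links the beta-catenin complex to chromatin, fell by 0.67 (SE 0.149, adjusted p = 0.00370). Of 6 partners of beta-catenin at the adherens junction, N-cadherin (Cdh2) was called, with a fall of 1.12 (SE 0.304, adjusted p = 0.0117), whereas E-cadherin (Cdh1) differed by -0.31 (SE 0.0728, adjusted p = 0.00533) and stayed below the required fold.

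Further target genes moved in both directions, with 2 of 20 called higher and 4 lower in group I and a median log2 difference of 0.06. The lower ones were Lef1, Rnf43, Nkd2 and Fzd7, described above, and the higher ones were Dkk1 and Myc. Myc, which is a target of many pathways besides Wnt, had 26.6 ± 12.7 CPM (n = 11) in group I and 12.0 ± 6.33 CPM (n = 8) in group II and rose by 1.18 (SE 0.226, adjusted p = 0.00139). Between embryos, Dact1, which binds Dishevelled, fell by 0.88 from embryo 2 to embryo 3 (SE 0.134, adjusted p = 0.000165), from 12.1 ± 2.47 to 6.58 ± 1.17 CPM (n = 7 each).

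Of 7 genes of the naive state that Tcf7l1 is known to bind and repress, 3 were called higher in group I and 0 lower. The paper already reports core and naive pluripotency genes as higher in group I. It drew the groups from these same libraries, so this count is not an independent result. The shares of all genes were 5.66% and 6.23%. The median log2 difference of the 7 was 0.58, while Tcf7l1 itself differed by -0.06. Tbx3 had 182 ± 72.7 CPM (n = 11) in group I and 80.3 ± 42.8 CPM (n = 8) in group II and rose by 1.24 (SE 0.222, adjusted p = 0.000868). Tfcp2l1 rose by 0.86 (SE 0.140, adjusted p = 0.000499) and Nr5a2 by 0.62 (SE 0.125, adjusted p = 0.00195). Nanog and Esrrb had log2 differences of 0.48 and 0.44, below the required fold. The same group I lines carried higher levels of fibroblast markers, as given above. Once the fibroblast score entered the model, 0 of these 7 genes were called. As that fit called 0 of all 20333 genes, this count says nothing particular to the 7.

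**Figure D4:**
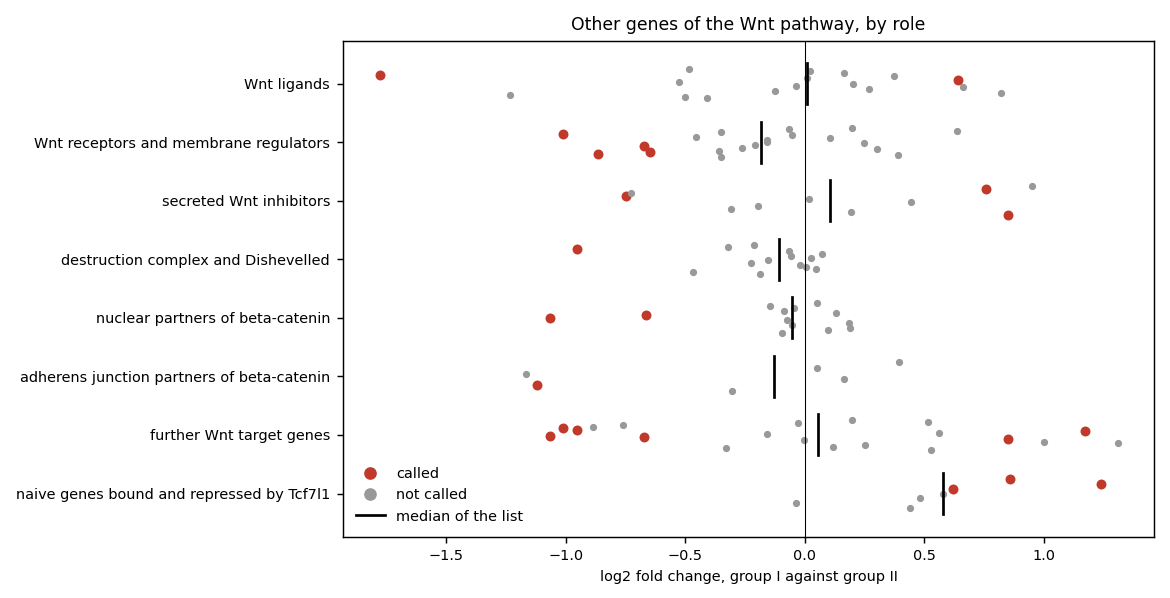
Log2 fold change between groups I and II (x axis) of each tested gene of the pathway lists (y axis, by role), with called genes in red, other genes in grey and the median of each list as a black bar. Receptors (4), nuclear partners (2), the destruction complex list (1) and adherens junction partners (1) have calls on the lower side alone. Naive genes repressed by Tcf7l1 have a median of 0.58 and calls on the higher side alone.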

How the data were processed

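The authors aligned the stranded mRNA libraries with STAR to the mouse genome (GRCm39) and deposited expected counts per gene from RSEM 1.3.0, which were whole numbers in the table. RSEM was run with its default parameters, which do not use strand, so reads of a gene and of an overlapping gene on the opposite strand cannot be told apart. Groups I and II were taken from the study's own description of its lines, and embryos from the labels. The 10 genes, the pathway lists and the tests were chosen with earlier results of these data known.

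The deposited counts were filtered with filterByExpr, scaled by TMM and fitted for the whole table in edgeR 4.0.16 (R 4.3.3), by quasi-likelihood, with embryo as the term, or embryo and group. A call needed a fold over 1.5 together with an adjusted p under 0.05, whereas the tests across 3 embryos or of the group difference by embryo used the adjusted p alone. The standard error of a log2 difference was its size over the square root of F, and 95% intervals used the t distribution. The code was tested on simulated data. Log2 levels used a pseudocount of 0.5 CPM. Of each pathway list, called genes at a mean of at least 1 CPM were named, up to 4 a comparison by fold.

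Alternatives were DESeq2 1.42.0, RLE factors, other filters, no fold threshold, other covariates, the line number as a block, and leaving out lines. Promoters came from a RefSeq table of GRCm38.p6, another build than that of the counts and gene positions, and no coordinates were converted. Protein sequences were not used here.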

Additional observations from a re-analysis of the deposited data

Results flagged for a closer look

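Notum in line 2.3 stood apart from its sister lines, at 15.9 CPM against 12.1 CPM in the next line of embryo 2 (line 2.6), a gap of 0.706 of the range of the 7 lines. It was the single line to stand apart in 30 sets of lines (the 10 genes in each of 3 embryos), and chance alone marks about 1 set in 20. Without line 2.3, Notum differed between embryos 3 and 2 by -0.80 on the log2 scale with an adjusted p of 0.0638.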

How the results depend on the processing

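The number of the 10 genes called was 0 for embryo 2 against 1, 1 for embryo 3 against 1 and 2 for embryo 3 against 2. For embryo 2 against 1 it became 1 (Notum) with DESeq2, without lines 1.5 and 2.4, or with group as a covariate, and 0 to 1 with 1 line left out. For embryo 3 against 1 it became 2 with DESeq2 or group as a covariate (Cdx1 added), and 1 to 2 with 1 line left out. For embryo 3 against 2 it became 1 with no filter on low counts (Notum, with Cdx1 lost), 0 without lines 2.2, 3.1, 3.2, 3.6 and 3.7, and 0 to 2 with 1 line left out. The count of 3 across the embryos became 1 without those 5 lines and 2 to 3 with 1 line left out. The group count of 1 became 3 with no fold threshold, and 1 to 2 with 1 line left out (T added without line 1.1). It became 0 once the fibroblast score entered the model, a fit that called 0 of all 20333 genes. The count for the group difference by embryo was 0 to 1 with 1 line left out (Notum without line 1.2). The 3 correlated pairs became 0 with the group means subtracted, and 1 (without line 2.2) to 4 with 1 line left out. The cause of these changes was not tested.

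Same-numbered lines of different embryos had a median correlation of 0.0192, over 0.1 in 6 of 17 pairs. Other-numbered lines had a median of 0.00395, over 0.1 in 39 of 102 pairs, so line numbers showed no pairing of the lines. When line numbers entered as a replicate block, 1 gene was called for embryo 3 against 2 (Notum) and 2 between the groups, where Notum joined Nkd1 at a log2 difference of 0.80 (adjusted p = 0.0420).

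Over all genes, the count called between the groups was 2417, and it was 1558 with a minimum of 1 CPM in 5 lines, 729 without the 5 lines, 1529 with the block, 1499 with no embryo term and 5231 with no fold threshold. For embryos 2 against 1, 3 against 1 and 3 against 2 it was 822, 1029 and 1062, without the 5 lines 502 in the second and 362 in the last, with group as a covariate 1201, 1896 and 1810, and with no fold threshold 1547 in the second. For the 3 embryos it was 2564, with DESeq2 3965, with the block 1564, without the 5 lines 1245 and with group as a covariate 4892. For the group difference by embryo it was 8, with DESeq2 258, with no filter 180 and with RLE factors 0. Depth limits T and Sp5 most, at 1 to 30 and 16 to 63 counts a line.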
